A study of Homo sapiens with 12 samples.

Results

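Probe sets that carry no gene symbol were followed in HK-2 cells exposed to Ota at low dose or to the vehicle. HK-2 is an immortalised line derived from human renal proximal tubular epithelium. A probe set is a group of short probes on an expression array that together read 1 stretch of transcript. The members were chosen by 2 criteria. They have no gene in the platform annotation used here, and their deposited log2 GCRMA value was above 4 on at least 3 of the 12 arrays. Of 54675 probe sets in all, 11721 had no symbol, 62 further ones were array controls, and 2063 of the 11721 passed the level criterion and are the members. The level criterion is a measured value, so the levels that chose the members are given as a description with no test.

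The 4 groups were control cells and Ota cells at 24 h, and control cells and Ota cells at 72 h, with 3 arrays in each. All groups were of the same cell line grown in medium that held hydrocortisone, insulin, transferrin, selenite and epidermal growth factor, and the control cells received the vehicle. The dose is labelled low, without a concentration, and the name Ota is not written out. As an abbreviation it commonly stands for ochratoxin A, a fungal toxin that damages the kidney. Arrays of 1 group are labelled biological replicates, with nothing on what the cultures shared, so p-values measure the spread between these arrays, which may be partly technical.

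Array designers built many probe sets on expressed sequence tags, which are short reads of cloned cDNA, before the human gene catalogue was settled. A probe set of that kind can read a non-coding RNA, an extended or alternative end of a known gene, or intron sequence of RNA that is not fully spliced, and some read no stable transcript at all. Probe set numbers follow the order in which content was added to the design, and the higher numbers hold more of the tag-based content. The absence of a symbol in the annotation therefore does not mean that a member reads no gene. The annotation used here lists 0 of the members, and 35.5% of them have ID numbers from 200017 to 221965. Members may also read known genes whose entries are missing from it, which was not tested. In the text a member is called by its probe set ID, in which the ending "_at" marks a probe set designed to be specific, "_s_at" and "_a_at" mark those shared by related transcripts, and "_x_at" marks those in which some probes can match other transcripts.

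Few probe sets without a symbol were measured above the filter. The share that passed was 17.6% (2063 of 11721), against 47.4% (19460 of 41091) of the probe sets with exactly 1 symbol and 53.0% (954 of 1801) of those with several. The share depended on the ID number. It was 36.4% (732 of 2009) in a low range of numbers, whose members ran from 200017 to 221965, and 46.2% (300 of 650) in a middle range, with members from 222103 to 229949. It was 13.8% (833 of 6031) in a high range, with members from 230057 to 244880, and 6.29% (190 of 3020) in a top range, with members from 1552263 to 1570566. In each of these ranges the share was lower than for single-symbol probe sets, at 59.6%, 67.7%, 28.2% and 15.01%. The other 8 members had lower numbers. The high range made up 40.4% of the members and 12.4% of the single-symbol probe sets above the filter. Specific "_at" probe sets made up 66.3% of the members (1368), "_s_at" 19.3% (398) and "_x_at" 13.0% (268).

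With all ID ranges pooled, members were dimmer than named probe sets. The mean over the 12 arrays had a median of 6.33 over the members, from 2.95 to 15.2. Over the single-symbol probe sets above the filter it was 7.72. Below 6 were 45.1% of the members and 24.0% of the single-symbol probe sets. The low range did not show this gap. There the median of control arrays at 24 h averaged 8.38 over members and 8.35 over single-symbol probe sets. On Ota arrays at 72 h these were 8.29 and 8.33. In the high range they were 5.21 and 5.87 on control arrays at 24 h. Of the members 1536 (74.5%) were above 4 on every array, 105 on exactly 3, and 29 were above 4 in arrays of 1 group alone, of which 18 were in Ota cells at 24 h. Just inside the filter lay 216354_at and 240128_at, where the lowest of the 3 highest array values was 4.01 in each case, and just outside lay 235757_at and 243966_at, at 3.997 and 3.996. Within groups the members varied more than named probe sets of like level: the median pooled SD was 0.29 against 0.24 at a mean level of 6 to 7, and 0.12 for both at 10 and over.

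**Figure D1:**
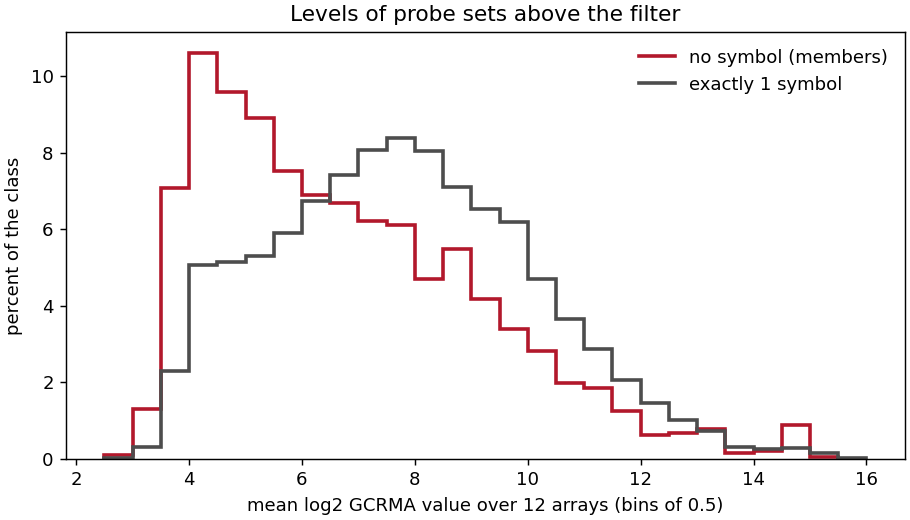
Distribution of the mean log2 GCRMA value over the 12 arrays (x axis, bins of 0.5) as the percent of each class (y axis), for the 2063 members (red) and the 19460 single-symbol probe sets above the filter (grey). The members crowd towards the filter, with a median of 6.33 against 7.72.

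Across the members, Pearson's r was 0.965 to 0.992 between arrays of 1 group and 0.872 to 0.978 between groups. The 3' minus 5' difference of actin, a sign of RNA integrity on the log2 scale, had means of 1.01 ± 0.21 (SD, n = 3) for control and 1.17 ± 0.12 for Ota arrays at 24 h. At 72 h these were 1.18 ± 0.17 and 1.28 ± 0.08. The same difference for GAPDH lay between -0.13 and -0.03 on every array. The part of RNA integrity in the results was not tested. Of 6 epithelial markers, such as KRT8, KRT18 and EPCAM, all were above the filter, and of the measured proximal tubule markers 0 of 9 were, LRP2 included at 3.01 to 3.06. Endothelial, distal nephron and leukocyte markers had 0 of 4, 0 of 4 and 0 of 3 above it, fibroblast markers 3 of 5 and podocyte markers 2 of 3. Among the fibroblast markers DCN had group means of 9.91 to 11.7 and LUM of 7.51 to 9.60, both lowest in control cells at 72 h, and COL1A1 of 7.44 to 8.45, also lowest there, while COL1A2 and PDGFRB lay at 2.33 to 3.04. Their part in the results was not tested.

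At 24 h more members were higher than lower in Ota cells, which is the reverse of the order among named probe sets. In limma, at an adjusted p below 0.05, 421 members were higher (20.4%) and 200 lower (9.69%), where over all 22477 probe sets tested the background was 12.9% higher and 18.1% lower. Single-symbol probe sets had 12.2% higher and 18.8% lower. Weighted to the members' distribution over mean level they had 12.3% and 18.3%, so the gap in these shares was as wide with levels matched. Changes of at least 2-fold were called higher in 262 members (12.7%) and lower in 75 (3.64%), against backgrounds of 5.22% and 5.5%. Single-symbol probe sets had 5.55% and 6.69% weighted to the members' levels. Weighted within ID ranges too, they had 7.50% and 5.93%. Among called members the median rise was 2.47-fold, against 1.71-fold among single-symbol probe sets, and 128 members and 228 single-symbol probe sets rose at least 4-fold, which is 6.21% and 1.17% of each class. These medians and 4-fold shares were not weighted to level. They include members that passed the filter through Ota arrays alone. Over all members the median log2 fold change was 0.06, with 10th and 90th percentiles of -0.52 and 1.33, and over the single-symbol probe sets it was -0.03, from -0.73 to 0.53. No test of the list was made, since the members had been chosen with earlier results known.

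The level filter could have favoured probe sets that were high in 1 group. The same counts were therefore taken among members with a mean over the 12 arrays of at least 6, a level at which the filter removed 0 probe sets. That mean includes the Ota arrays, so a member can still reach 6 through them, as 232205_at did from control means of 4.33 and 4.66. The cut therefore does not set aside every choice on level. Of these 1132 members 230 were higher (20.3%) and 138 lower (12.2%), against 12.3% and 19.9% of single-symbol probe sets weighted to the same levels. The gap was widest at mean levels of 6 to 7, where 29.3% of 280 members and 11.8% of 2755 single-symbol probe sets were higher, and it was not seen at 10 and over, at 10.3% and 10.98%. The median over all members shifted too, from 6.26 ± 0.04 (SD, n = 3) on control arrays to 6.63 ± 0.18 on Ota arrays at 24 h, with the 3 Ota arrays at 6.46 to 6.82 above the 3 control arrays at 6.22 to 6.29. Over the single-symbol probe sets that median was 7.74 ± 0.06 and 7.67 ± 0.04. Symbol-less probe sets below the filter had medians of 2.46 on control and 2.48 on Ota arrays at 24 h, and their 90th percentile was 3.11 ± 0.05 and 3.17 ± 0.04.

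**Figure D2:**
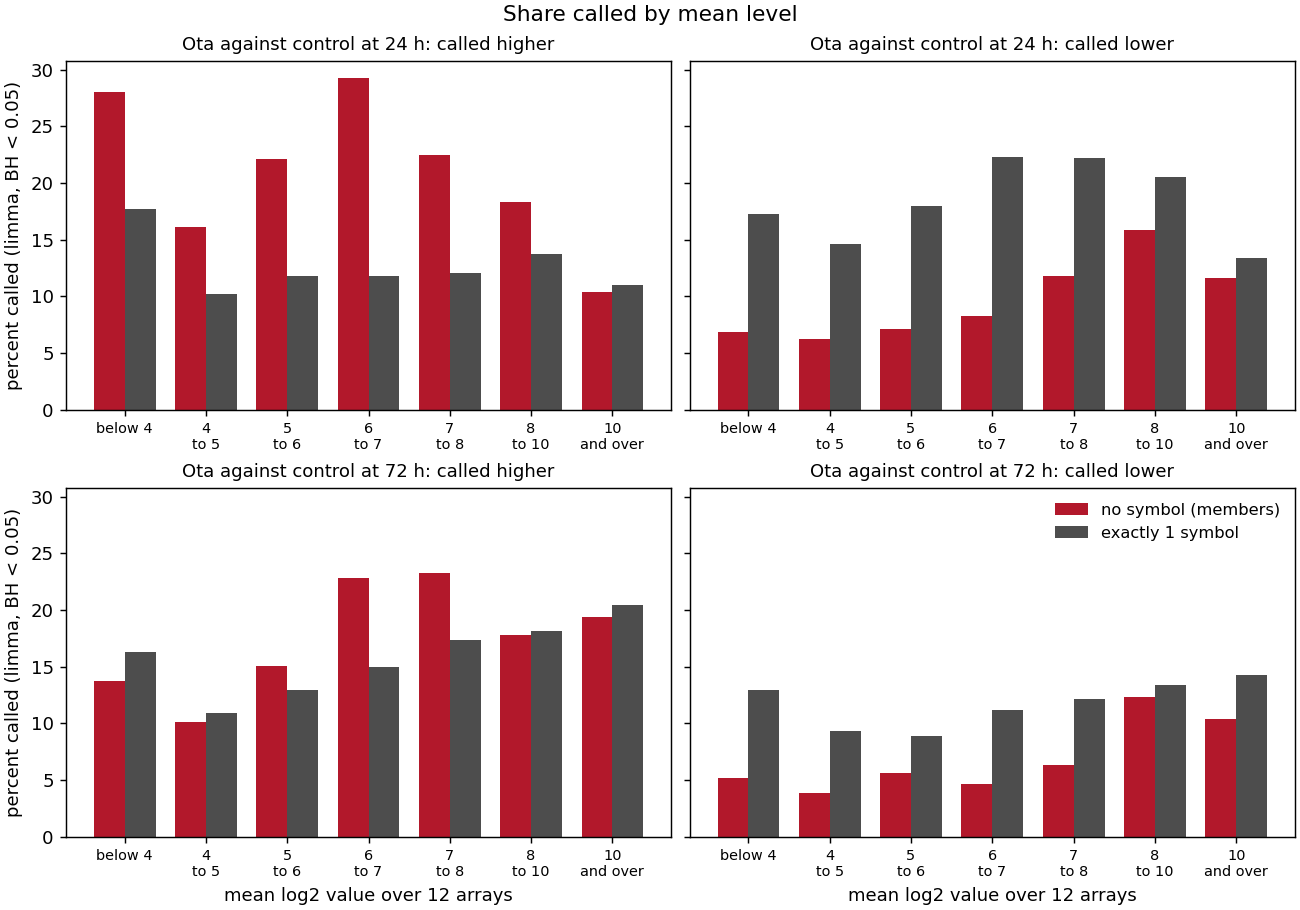
Percent of members (red) and of single-symbol probe sets (grey) called higher (left) or lower (right) in Ota than in control cells by limma (y axis) within strata of the mean log2 value (x axis), at 24 h (top) and 72 h (bottom). At 24 h the red bars for higher calls exceed the grey ones in every stratum below 10, and at 72 h the gap is seen from 5 to 8.

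The largest rise at 24 h was that of 243378_at. It read 2.94, 2.84 and 3.00 on the control arrays and 7.66, 8.68 and 7.94 on the Ota arrays, a log2 fold change of 5.17 ± 0.21 (SE, n = 3 per group; limma, adjusted p = 6.36e-08). The control value is at the floor of the method, which leaves the size of the rise poorly determined. The same holds for 1557506_a_at, which read 2.61, 2.61 and 2.84 in control and 7.23, 7.38 and 6.88 in Ota cells (22.2-fold, adjusted p = 4.07e-08). Control cells at 72 h read a like low level in both. Only Ota arrays of these members were above 4, so they passed the filter through Ota cells alone. Their higher Ota level follows from the filter and is given as a description.

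Among members with a mean of at least 4 in both groups, 1560023_x_at rose most, from 3.93, 4.96 and 3.83 on control arrays to 8.90, 9.54 and 8.39 on Ota arrays (26.0-fold, log2 fold change 4.70 ± 0.37, limma, adjusted p = 5.06e-06). The closely numbered 1560021_at rose 17.6-fold in the same manner (adjusted p = 1.22e-06). The files do not say whether 2 members read the same transcript, and these may not be separate readings. 232205_at read 4.79, 3.67 and 4.54 in control and 9.18, 9.13 and 8.67 in Ota cells (25.35-fold or 4.66 ± 0.31 on the log2 scale, adjusted p = 1.78e-06). 214102_at rose 23.7-fold, from 5.66, 4.58 and 4.81 to 9.70, 9.66 and 9.40 (adjusted p = 3.69e-06). 229544_at rose 20.7-fold, from 5.70, 5.02 and 5.65 to 9.86, 10.00 and 9.63 (adjusted p = 6.36e-08). 238472_at rose 18.2-fold, from a mean of 5.11 ± 0.76 (SD, n = 3) to 9.29 ± 0.13 (adjusted p = 2.73e-06). In these 6 members every Ota array stood more than 2-fold above every control array. Groups that did not overlap were a condition for naming all of them but 1560021_at, so this separation is given as a description.

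The largest fall at 24 h was similar in size to these rises. 218961_s_at went from 8.82, 8.71 and 8.56 on control arrays to 4.34, 4.18 and 4.76 on Ota arrays, and fell by 4.27 ± 0.16 on the log2 scale (limma, adjusted p = 4.13e-08). The next falls were smaller: 214033_at fell by 3.01 ± 0.42, 202103_at by 2.67 ± 0.29, 202671_s_at by 2.40 ± 0.16 and 203263_s_at by 2.38 ± 0.27 (limma, adjusted p of 1.74e-06 to 0.000266). Of these 202671_s_at stayed well measured, at 10.61, 10.62 and 10.39 in control and 8.12, 8.34 and 7.98 in Ota cells. Falls to below 4 were led by 242045_at, from 6.10, 5.83 and 6.36 to 3.74, 3.29 and 3.41, and by 227368_at, from 5.58, 5.19 and 6.87 to 3.36, 3.23 and 3.26. Groups that did not overlap were a condition for naming these falls. The 5 falls with both means at least 4 all had ID numbers in the low range, as did 1 of the 5 rises.

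At 72 h the members again had more rises than falls, but the rises were about as frequent as among named probe sets. In limma 350 members were higher (17.0%) and 142 lower (6.88%), against backgrounds over all probe sets of 16.4% and 11.8%. Single-symbol probe sets had 16.6% and 12.1%, or 15.4% and 11.4% weighted to the members' levels. At least 2-fold changes were called higher in 160 members (7.76%) and lower in 31 (1.503%), with backgrounds of 4.9% and 2.48%. Weighted to the members' levels, single-symbol probe sets had 5.28% and 3.21%, and within ID ranges too 6.36% and 3.21%. The median rise among called members was 1.95-fold, against 1.64-fold for single-symbol probe sets. At least 4-fold rises were called in 39 members (1.89%) and 119 single-symbol probe sets (0.61%). These medians and 4-fold shares were not weighted to level. The median over the members was 6.24 ± 0.07 (SD, n = 3) on control arrays, from 6.17 to 6.31, and 6.44 on each Ota array.

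The largest rise at 72 h was that of 238065_at, which read 3.62, 3.92 and 4.03 on control arrays and 7.81, 7.72 and 7.72 on Ota arrays (14.9-fold, log2 fold change 3.90 ± 0.11, limma, adjusted p = 9.65e-09). It had also risen at 24 h, 9.19-fold, from a higher control level of 5.23, 5.03 and 5.12. 243378_at followed, still at 2.96, 2.81 and 2.94 in control and at 6.87, 6.73 and 6.49 in Ota cells (13.9-fold from the floor, adjusted p = 1.12e-06). It passed the filter through Ota arrays alone, so this rise too is given as a description. Of the members with both means at least 4, 214102_at rose 11.05-fold, from 4.80, 4.16 and 4.23 to 7.94, 7.16 and 8.48, and 239543_s_at rose 8.72-fold, from 6.28, 7.25 and 6.73 to 9.60, 10.28 and 9.76 (limma, adjusted p = 5.29e-05 and 0.000166). 236916_at rose 8.28-fold, from 5.69, 6.08 and 6.23 to 9.06, 9.10 and 8.99, 232205_at 8.04-fold, and 212991_at 7.06-fold (limma, adjusted p of 1.14e-06 to 7.48e-05). All of these had also been called higher at 24 h, in a comparison of means from other arrays. The estimate of the spread is shared by both comparisons.

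Over all called members the median fall was -0.76 on the log2 scale at 72 h and -0.79 at 24 h. The largest fall at 72 h was that of 219553_at, which read 8.98, 9.24 and 9.33 on control arrays and 6.78, 6.89 and 6.98 on Ota arrays, and fell by 2.30 ± 0.14 on the log2 scale (limma, adjusted p = 2.75e-06). At 24 h it had gone from 8.80, 8.60 and 9.04 to 6.84, 7.21 and 6.90, so its Ota arrays lay between 6.78 and 7.21 at both times. 227368_at fell by 2.27 ± 0.38, 244044_at by 1.58 ± 0.25, 243829_at fell by 1.55 ± 0.19 and 236515_at fell by 1.51 ± 0.24 (adjusted p of 0.000223 to 0.00123). 243829_at read 7.06, 7.28 and 7.07 in control and 5.45, 5.52 and 5.77 in Ota cells. Falls to below 4 were led by 217682_at, by 2.17 ± 0.41 to a mean of 2.88. Only control arrays of this member were above 4, so its lower Ota level follows from the filter and is given as a description. 239134_at was above 4 on the control arrays at 72 h alone, at 4.16, 4.18 and 4.85, and passed the filter through them, so its lower Ota level there follows from the filter and is given as a description.

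**Figure D3:**
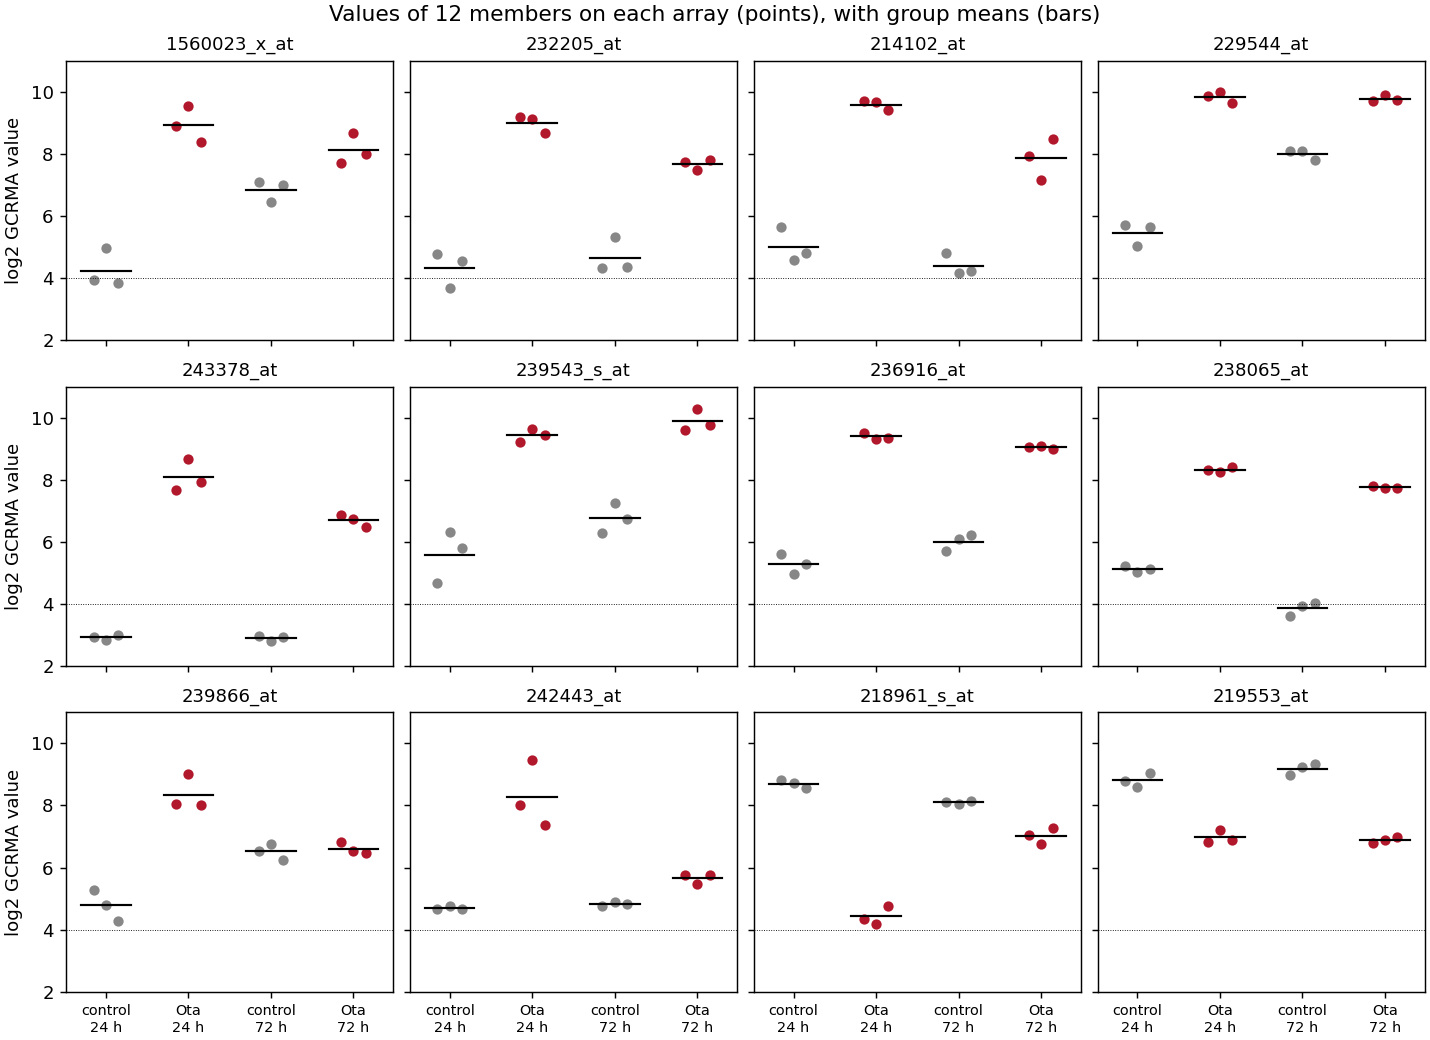
Log2 GCRMA values (y axis) of 12 members on each of the 12 arrays, by group (x axis), with control arrays in grey, Ota arrays in red, the mean of each group as a bar and the filter level of 4 as a dotted line. The first 10 panels show members that rose at 24 h and the last 2 members that fell, and in 239866_at and 242443_at the Ota arrays lie closer to control at 72 h.

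Rises at 24 h were often still present at 72 h, in arrays that the 24 h comparison did not use. Of the 421 members higher at 24 h, 222 (52.7%) were called higher at 72 h as well, which is 63.4% of the 350 higher at 72 h, and 7 were called lower. For single-symbol probe sets the 1109 shared rises were 46.6% of the 2380 at 24 h and 34.4% of the 3227 at 72 h. Of the 200 members lower at 24 h, 73 (36.5%) were lower at 72 h, which is 51.4% of the 142, and 10 were higher (5%). Single-symbol probe sets were near this. Their 1181 shared falls were 32.2% of the 3666 at 24 h and 50.3% of the 2350 at 72 h, and 6.52% were higher at 72 h. The sizes shrank: members called higher at 24 h had a median log2 fold change of 1.31 at 24 h and 0.67 at 72 h, and those called lower had -0.79 and -0.25. Single-symbol probe sets had 0.77 and 0.42 for higher calls, and -0.73 and -0.26 for lower calls. Since these sets were selected on the 24 h values, smaller values at 72 h come in part with that choice. Over both comparisons 1262 members were called at neither time, 309 at 24 h alone, 180 at 72 h alone and 312 at both, counting calls of either direction. The same division was not counted for single-symbol probe sets.

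**Figure D4:**
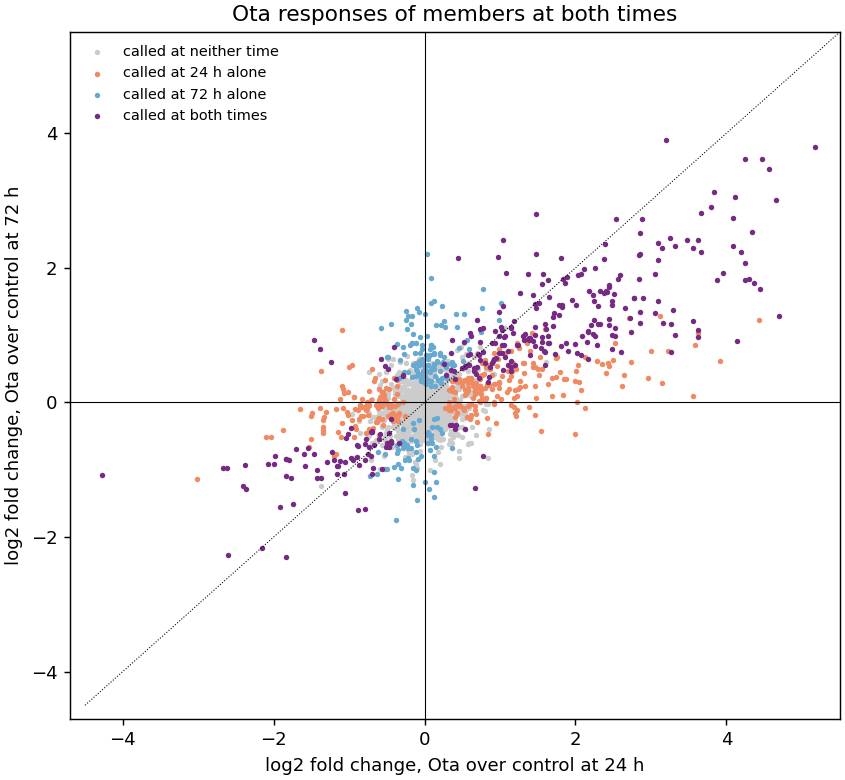
Log2 fold change of Ota over control cells at 24 h (x axis) and at 72 h (y axis) for the 2063 members, coloured by the time at which limma called them, with the dotted line marking equal change. The 421 members called higher at 24 h had medians of 1.31 on the x axis and 0.67 on the y axis, below the line.

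The difference between the responses was tested directly, as the 72 h response minus the 24 h response. In limma 162 members had a lower response at 72 h (7.85%) and 124 a higher one (6.01%), with backgrounds of 5.77% and 11.2% over all probe sets. The count of higher ones was 81 without replicate 1 of the Ota cells at 72 h. Weighted to the members' levels, 5.33% of single-symbol probe sets were lower and 10.8% higher. The strongest loss was that of 239866_at, which rose from 5.27, 4.80 and 4.27 to 8.04, 9.00 and 8.0 at 24 h, and at 72 h read 6.54, 6.76 and 6.26 in control and 6.82, 6.53 and 6.48 in Ota cells, where the groups overlapped. Its responses differed by -3.47 ± 0.42 (limma, adjusted p = 0.00066), and its control mean climbed from 4.78 to 6.52 over this time. 1560023_x_at and 1560021_at had differences of -3.42 ± 0.52 and -3.23 ± 0.37 (adjusted p = 0.00225 and 0.000556), and in both the control level itself had climbed by 72 h, to 6.85 and 7.16. In the other direction 218961_s_at had a difference of 3.19 ± 0.23 (adjusted p = 5.29e-05), and Ota cells at 72 h read 7.05, 6.75 and 7.27 against 8.10, 8.04 and 8.15 in control. 206170_at and 203805_s_at changed direction: they fell by 1.47 ± 0.29 and 1.38 ± 0.11 on the log2 scale at 24 h (limma, adjusted p = 0.00282 and 4.13e-06) and rose by 0.93 ± 0.29 and 0.80 ± 0.11 on the log2 scale at 72 h. The adjusted p at 72 h was 0.0349 and 0.000295 in limma. For 203805_s_at the control arrays were at 7.29, 7.35 and 7.65 at 24 h and 5.92, 5.91 and 5.90 at 72 h, and the Ota arrays at 6.02, 6.04 and 6.08 and then 6.82, 6.60 and 6.71, with no overlap at either time.

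The share called at 24 h varied with the ID number in members and in named probe sets. Of members in the low range, 79 of 732 were higher (10.8%) and 109 lower (14.9%), against 8.72% and 19.7% of single-symbol probe sets in it. Members in the middle range had 21.0% higher and 13.0% lower, against 16.4% and 19.9%. Of members in the high range, 237 of 833 were higher (28.5%) and 42 lower (5.04%), and single-symbol probe sets there had 21.5% and 11.4%. Members in the top range had 40 of 190 higher (21.1%) and 8 lower (4.21%), against 10.6% and 18.8%. Weighted to the members' levels within these ranges, the single-symbol shares at 24 h came to 14.9% higher and 16.1% lower in all, so the gap to the members' 20.4% and 9.69% was smaller than with level alone. With the same weighting at 72 h the single-symbol shares were 16.6% higher and 10.8% lower, against 17.0% and 6.88% of the members. At 72 h higher calls lay at 14.7% to 18.4% of the members in the 4 ranges and at 14.9% to 19.3% of single-symbol probe sets, while lower calls were 4.32% and 2.63% in the high and top ranges, against 8.06% and 11.6%.

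**Figure D5:**
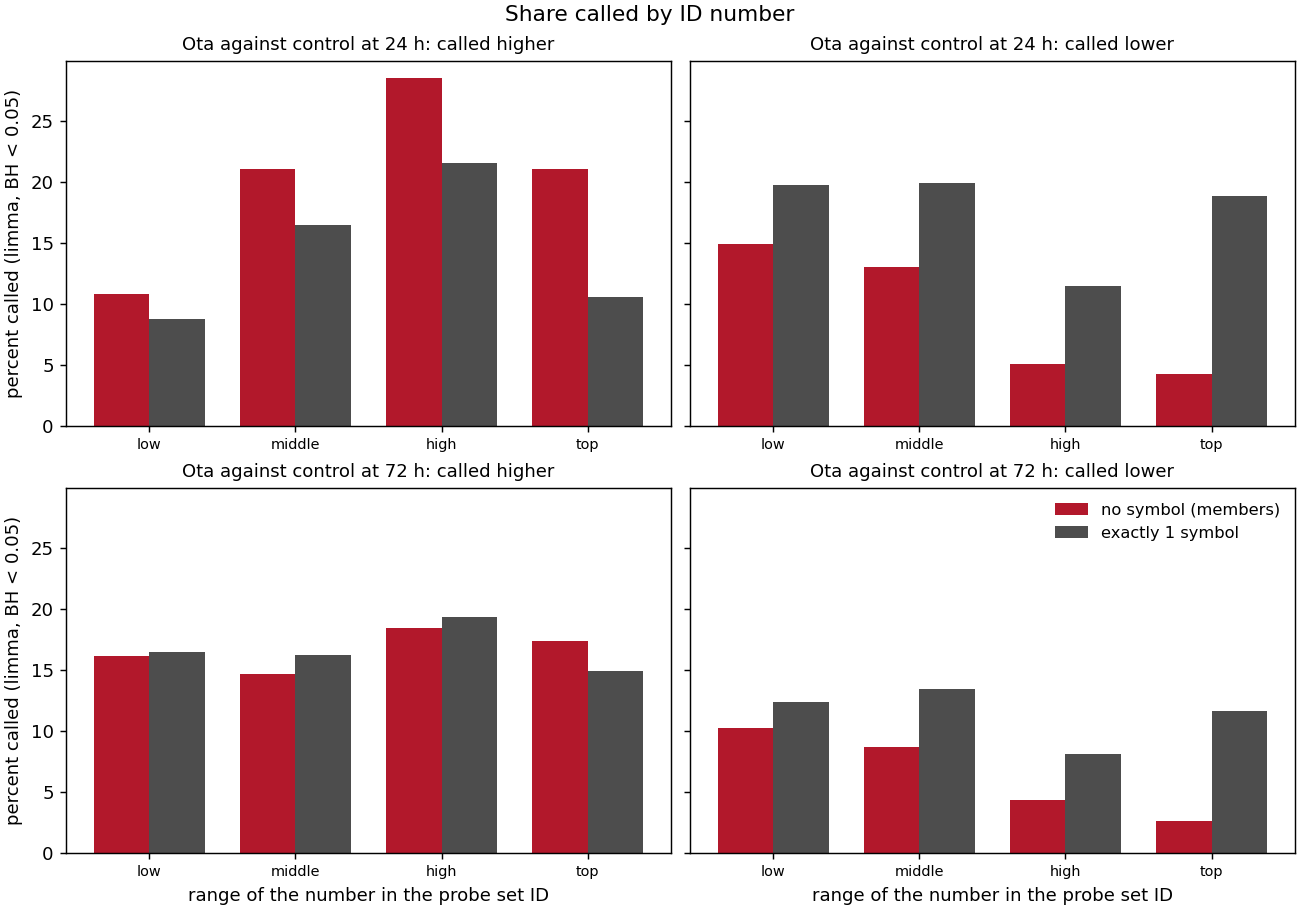
Percent of members (red) and of single-symbol probe sets (grey) called higher (left) or lower (right) in Ota than in control cells by limma (y axis), by the range of the number in the probe set ID (x axis), at 24 h (top) and 72 h (bottom). At 24 h higher calls climb from 10.8% to 28.5% of the members between the low and the high range, and from 8.72% to 21.5% of single-symbol probe sets.

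The medians of the arrays followed the same division. Over members in the high range the median was 5.21 ± 0.09 (SD, n = 3) over control arrays and 5.62 ± 0.31 over Ota arrays at 24 h, with the Ota arrays at 5.32 to 5.94 above the control arrays at 5.10 to 5.26. Single-symbol probe sets of that range went from 5.87 ± 0.14 to 6.09 ± 0.02 at 24 h, also without overlap of the arrays. At 72 h the members' median was 5.02 ± 0.15 and 5.10 ± 0.13, and the groups overlapped. Over members in the low range it moved little, from 8.38 ± 0.07 to 8.31 ± 0.01 at 24 h and from 8.30 ± 0.04 to 8.29 ± 0.02 at 72 h. By ID ending, 25.1% of "_at" members were higher at 24 h and 8.48% lower, against 16.02% and 17.6% of "_at" probe sets with 1 symbol. Those ending in "_s_at" had 10.8% higher and 17.3% lower, against 7.52% and 21.4%, and those ending in "_x_at" 10.1% and 4.48%, against 7.00% and 17.3%.

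Named non-coding RNA genes were counted beside the members, with no test. They were taken by their symbols (LINC, antisense, divergent and host-gene names, SNHG genes, NEAT1 and MALAT1), which gave 295 single-symbol probe sets above the filter. At 24 h 14.2% of these were higher in Ota cells and 21.4% lower, near the 12.9% and 18.1% over all probe sets tested, and at 72 h 9.15% were higher and 21.7% lower, against 16.4% and 11.8%. In control cells 32.5% of them were higher at 72 h than at 24 h and 4.75% lower, against 20.2% and 19.7% over all.

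In Ota cells more members were lower than higher at 72 h than at 24 h, the reverse of the background. From 24 h to 72 h 358 members were lower (17.4%) and 211 higher (10.2%) in Ota cells, with backgrounds of 9.94% and 17.7%, and 8.18% and 17.2% of single-symbol probe sets weighted to the same levels. The count of lower members rested in part on single arrays: it was 194 without replicate 2 of the Ota cells at 24 h, which had the highest median over the members, and 198 and 226 without replicates 2 and 1 of the Ota cells at 72 h, and the count of higher members was 136 without that 24 h array. The single-symbol share fell with it, to 5.04% weighted to the members' levels when that 24 h array was left out, against 9.40% of the members. The largest decline was that of 242443_at, from 8.01, 9.45 and 7.37 to 5.77, 5.48 and 5.77 (-2.60 ± 0.38, limma, adjusted p = 0.000953), while control cells stayed at 4.66 to 4.89 throughout. 243695_at declined from 7.76, 8.76 and 7.25 to 5.26, 5.54 and 5.52 (-2.49 ± 0.32, adjusted p = 0.000535), with control arrays between 2.52 and 3.88. It passed the filter through Ota arrays alone, so its higher level in Ota than in control cells follows from the filter.

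In control cells the members moved both ways over time. From 24 h to 72 h 306 were higher (14.8%) and 325 lower (15.8%), against backgrounds of 20.2% and 19.7%, and 18.7% and 17.6% of single-symbol probe sets weighted to the same levels. Weighted within ID ranges too, the single-symbol share of lower calls was 16.3%, and at 2-fold the members had 5.53% lower against 5.30%. 205239_at rose 7.76-fold, from 7.09, 7.14 and 7.55 to 9.73, 10.30 and 10.63, and read 6.99, 7.65 and 7.32 and then 8.93, 10.55 and 9.83 in Ota cells, where neither Ota comparison called it (limma, adjusted p = 0.928 at 24 h and 0.401 at 72 h). 230265_at rose 7.31-fold in control cells, to 10.53, 10.19 and 10.43, and in Ota cells reached 8.59, 9.57 and 9.17, lower than control at 72 h by 1.27 ± 0.21 (limma, adjusted p = 0.00139). The falls were led by 242471_at at -2.39 ± 0.70, whose groups spread widely, by 230312_at at -2.37 ± 0.29 and by 222513_s_at at -2.21 ± 0.29 (limma, adjusted p = 0.0185, 9.39e-05 and 0.00016). The call of 242471_at was lost without control 24 h replicate 1 or 2 or control 72 h replicate 3 (limma, adjusted p of 0.0616 to 0.0719) and with no filter (adjusted p = 0.0848), within a range of 0.00234 to 0.0848 over its settings. 230312_at fell in control cells from 7.29, 7.18 and 6.86 to 5.30, 4.91 and 4.01, and Ota cells were higher at both times, 2.80-fold and 6.95-fold.

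The brightest members were not called in either Ota comparison, at a level near the top of the scale where a change can be compressed. 206559_x_at read 15 to 15.35 over the 12 arrays, and 211972_x_at, 200031_s_at, 208980_s_at and 211720_x_at read between 14.78 and 15.10. Their log2 fold changes lay between -0.08 and 0.04 in the Ota comparisons, each with an SE of 0.08, with limma's adjusted p of 0.473 to 0.992. Their groups overlapped in both Ota comparisons, except that the Ota arrays of 211972_x_at at 72 h, at 14.97 to 14.99, lay just below the control arrays at 15.01 to 15.10.

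The named probe sets most like the leading members over the 12 arrays were found by Pearson correlation among 19460 candidates. The 12 arrays fall into 4 groups, so these values mostly record shared group differences and are descriptions. Each gene named here stands for a single probe set, and other probe sets of the same genes are not given. 1560023_x_at was most like probe sets of SH3GLB1 and HDLBP (r = 0.988 and 0.987), whose log2 fold changes at 24 h were 1.04 and 3.26. These genes encode an endophilin-family membrane-binding protein and an RNA-binding protein with KH domains. 214102_at was most like AHCTF1 and LUC7L3 (r = 0.991 and 0.981), which encode a nuclear pore protein and a splicing-related protein, at log2 fold changes of 0.87 and 3.27 at 24 h and 0.65 and 2.25 at 72 h. 218961_s_at was most like ABHD11 and PRR13 (r = 0.991 and 0.987), at -1.78 and -1.24 at 24 h and -0.56 and -0.42 at 72 h. 219553_at was most like IFFO1 and KDELR3 (r = 0.990 and 0.987), the second a receptor that retrieves endoplasmic reticulum proteins, at -4.28 and -2.50 at 72 h.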

How the data were processed

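Biotin-labelled RNA of HK-2 cells was read on 12 Affymetrix expression arrays. The deposited values are log2 expression, which per the submitters' processing notes the authors made with GCRMA. That method corrects background by a model of the probe's bases, brings the arrays to a common distribution and gives 1 value per probe set. A shift of all RNA together is hidden by this, and low values sit on a floor. Its version was not given in the sources used here. Arrays have no read depth, and their number limits the precision.

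Symbols came from the platform annotation, updated by gene identifier with RefSeq genes of assembly GRCh38.p14. The annotation lists 0 of the members, so no gene, accession or sequence was taken for them. Probe sets above 4 on at least 3 arrays, without the 62 controls, were fitted in limma 3.58.1 under R 4.3.3 (lmFit and eBayes, 1 mean per group, residual degrees of freedom 8, prior 2.93). P-values were adjusted by Benjamini-Hochberg over all 22477, and calls were made at an adjusted p below 0.05. The fit was tested on simulated data. Shares of single-symbol probe sets were weighted to the members' counts in strata of mean level. Weighting within ID ranges and the counts at a mean of at least 6 were added after seeing the data.

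Named members were, in each Ota comparison, the 5 largest called rises and falls with non-overlapping arrays and both means at least 4, and the 2 largest of each with the lower mean under 4. To these were added the 3 largest each way in the difference of responses and in control cells over time, the 2 largest each way in Ota cells over time, the 5 brightest members, and 2 on each side of the filter. A further part of the rule, on members with a RefSeq accession, could not be applied. The members and lists were chosen with earlier results of these data known. The deviations of same-numbered replicates had r of 0.347 to 0.480 between control and Ota cells at 24 h and 0.120 to 0.286 between control cells at both times. They had -0.038 to 0.176 between control and Ota cells at 72 h and -0.080 to 0.138 between Ota cells at both times. Apart from the first, these ranges overlap, and no test was made of them. Ota cells at 24 h and control cells at 72 h, which were not compared, had 0.283 to 0.295. Alternatives numbered 21. Reading used data.table (version 1.17.8), and plots used Python 3.11.15 with matplotlib 3.10.9.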

Additional observations from a re-analysis of the deposited data

Results flagged for a closer look

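For 23 of the named members the response to Ota differed between 24 h and 72 h by the test of the difference itself in limma, the 72 h log2 fold change minus that at 24 h, with adjusted p of at most 0.0486. In 13 of these the difference was negative. It was -3.47 for 239866_at, -3.42 for 1560023_x_at, -3.23 for 1560021_at, -2.59 for 229544_at, -1.94 for 238472_at, -1.66 for 232205_at, -1.37 for 243378_at, -1.06 for 236916_at and -0.86 for 1557506_a_at, which had all risen at 24 h. The difference was -2.72 for 242443_at and -1.81 for 243695_at, which had also risen at 24 h. It was -1.93 for 230265_at, which was higher at 24 h and lower at 72 h. It was -1.36 for 239134_at, which was at the floor in both groups at 24 h. This member passed the filter only through the control arrays at 72 h, so this difference follows from the filter. Among the members that rose, 243378_at, 1557506_a_at and 243695_at passed the filter through Ota arrays alone, so their higher Ota levels follow from it.

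In the other 10 the difference was positive. It was 3.19 for 218961_s_at, 1.69 for 202103_at, 1.65 for 242045_at, 1.44 for 203263_s_at and 1.16 for 202671_s_at, all of which fell less at 72 h than at 24 h. It was 2.40 for 206170_at and 2.18 for 203805_s_at, which changed direction, and 0.70 for 238065_at and 1.31 for 230312_at, whose rises were larger at 72 h. It was 1.69 for 222513_s_at, which was called higher at 72 h and not called at 24 h.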

How the results depend on the processing

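With at least 2-fold changes required, 262 members were higher and 75 lower at 24 h, 160 and 31 at 72 h, 62 had a higher response at 72 h, 90 and 114 were higher and lower in control cells over time, and 56 and 156 in Ota cells over time. With no filter the difference of responses had 73 higher and 88 lower members, and Ota cells over time 140 and 192. With a filter above 6 on 3 arrays 228 members were lower in Ota cells over time. Leaving out 1 array at a time gave 81 to 142 members with a higher response at 72 h, and in Ota cells over time 136 to 236 higher and 194 to 462 lower. Leaving out 1 array gave 354 to 422 higher and 149 to 196 lower members at 24 h, and 259 to 370 and 103 to 150 at 72 h. The fit with the replicate block called 447 higher and 226 lower at 24 h and 392 and 170 at 72 h, and moved no count by over 1.5 times. With it the members had 21.7% and 10.95% at 24 h, against weighted single-symbol shares of 13.6% and 20.3%. At 72 h they had 19.0% and 8.24%, against 17.5% and 12.9%. Without weighting, the single-symbol share of higher calls at 72 h was 18.95%. The members' share was above the weighted single-symbol share for higher calls at both times, and below it for lower calls at both times, in all 21 settings with weighting by level. For Ota cells over time it was below for higher calls and above for lower calls in all 21. The difference of responses had the same order in all 20 of its settings. With weighting within ID ranges the shares of higher calls at 72 h were 17.0% and 16.6%, and in the low and middle ranges the members were below, at 16.1% against 16.3% and 14.7% against 15.7%. For lower calls in control cells over time the members were above in 2 of 21 settings, at 2-fold and without control 24 h replicate 3 (17.4% against 16.4%). Of 869 alternative values of 44 named fold changes 865 kept direction and call, 4 lost the call and 0 reversed. All 4 were of 242471_at in control cells, from -3.02 to -1.69. With the 3 arrays of a group, small changes of dim members cannot be told from the spread between arrays.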
